A study of Mus musculus with 8 samples.

Results

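The genes of cholesterol synthesis, its control and cholesterol export were followed through the stimulation of mouse splenic T cells. The group holds 30 named genes of the 19752 that had a named probe on the array. A probe belonged to a gene when the array's own accession was a RefSeq transcript of it, and the probe with the highest mean log2 signal over all arrays stood for the gene. All 30 genes had a probe, and all 30 were among the 15138 genes that passed the filter on dim probes and were tested. By role they are 19 enzymes of synthesis (9 up to geranylgeranyl and farnesyl pyrophosphate and 10 from squalene to cholesterol), 5 genes of sterol sensing, 1 carrier, 2 receptors of the LXR family and 3 export genes driven by those receptors. No receptor for lipoprotein uptake is in the group, and the gene closest to uptake is Mylip, which encodes a ubiquitin ligase that sends lipoprotein receptors to degradation.

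RNA came from splenic T cells of wild-type C57BL/6 mice (Lsp1+/+, WT) and of Lsp1-deficient mice (Lsp1-/-, KO) backcrossed onto C57BL/6 for 10 generations, with age and sex matched and an age of 8 to 12 weeks. The product of Lsp1, leukocyte-specific protein 1, binds filamentous actin in blood leukocytes, and the study asks about the migration of T cells in rheumatoid arthritis. Cells of each genotype were kept in medium or given anti-CD3/CD28 antibodies for 6 h, which gave 4 groups of 2 one-colour arrays. The labels name neither the deleted part of Lsp1 nor separate animals behind the 2 arrays of a group, so each p-value reflects the spread of these samples alone, and that spread may be technical. The sources used here do not give the method of T cell separation.

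Cells make cholesterol from acetyl-CoA through mevalonate, the isoprenoid pyrophosphates, squalene and lanosterol. When sterol in the endoplasmic reticulum is low, the protein SCAP escorts the SREBP transcription factors to the Golgi, where they are cleaved and become free to switch on the genes of synthesis and uptake; INSIG proteins hold SCAP back when sterol is ample. Oxysterols and late precursors of cholesterol activate the LXR receptors, which switch on the exporters ABCA1 and ABCG1 and the ligase encoded by Mylip. In T cells, activation is known to raise sterol synthesis and to lower LXR signalling ahead of division, since new membrane is needed.

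Promoter sequences are shown for the 3 synthesis genes with the largest called increases and for the export gene with the largest decrease, because the SREBP and LXR factors act through short DNA elements. Each runs from 250 bases before to 50 bases after the start in RefSeq's table of GRCm38.p6, on the strand of the gene, 5′ to 3′. Capitals mark the CCAAT box of the factor NF-Y, which works beside SREBP at many sterol genes (ATTGG on the other strand), and in Abca1 the DR4 element of LXR. No other motif is capitalised.
Idi2, chr13:8952613-8952912, plus strand: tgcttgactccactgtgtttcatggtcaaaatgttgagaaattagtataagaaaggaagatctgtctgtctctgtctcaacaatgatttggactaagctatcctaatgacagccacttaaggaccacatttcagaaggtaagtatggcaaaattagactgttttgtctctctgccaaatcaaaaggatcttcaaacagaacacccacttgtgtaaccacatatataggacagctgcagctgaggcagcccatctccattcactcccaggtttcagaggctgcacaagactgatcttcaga
Idi1, chr13:8885356-8885655, plus strand: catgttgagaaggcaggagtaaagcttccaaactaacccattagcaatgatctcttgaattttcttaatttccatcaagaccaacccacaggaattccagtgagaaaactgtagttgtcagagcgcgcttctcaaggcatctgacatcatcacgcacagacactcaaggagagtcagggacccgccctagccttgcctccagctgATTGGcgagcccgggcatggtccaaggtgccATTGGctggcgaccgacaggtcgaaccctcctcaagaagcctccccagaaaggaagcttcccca
Cyp51, chr5:4104648-4104947, minus strand: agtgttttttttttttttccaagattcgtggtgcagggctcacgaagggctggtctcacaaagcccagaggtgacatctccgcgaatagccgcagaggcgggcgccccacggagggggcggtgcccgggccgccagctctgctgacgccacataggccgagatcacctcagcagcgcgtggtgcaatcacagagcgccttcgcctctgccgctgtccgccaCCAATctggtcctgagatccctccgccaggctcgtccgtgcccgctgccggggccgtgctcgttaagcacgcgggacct
Abca1, chr4:53159846-53160145, minus strand: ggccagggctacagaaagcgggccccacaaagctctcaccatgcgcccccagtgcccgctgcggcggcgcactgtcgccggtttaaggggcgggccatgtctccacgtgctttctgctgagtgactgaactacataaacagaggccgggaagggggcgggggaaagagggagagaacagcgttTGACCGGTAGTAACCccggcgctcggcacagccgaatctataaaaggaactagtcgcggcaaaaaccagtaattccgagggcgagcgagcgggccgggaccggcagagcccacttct

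A promoter window was given for 25 of the 30 genes, and not for Sqle, Fdft1, Fdps, Stard4 and Abcg1. Motifs were sought on both strands. CCAAT stood in 14 of the 16 synthesis genes with a window, against 42.5% of the tested genes with a window and 37.4% of all 32851 windows of the table. The GC box GGGCGG, bound by Sp factors, stood in 13 of the 16, against 61.1% of the tested genes and 35.7% of all windows. The sterol response element TCACNCCAC was found in 1 of the 16, Hmgcs1 (TCACCCCAC, first base at -137 from the start), and in 1.24% of all windows. Its shorter form CACNCCAC, which lies within the longer one, was found in Acat2, Hmgcs1 and Insig1 and in 6.24% of windows. The DR4 element, a direct repeat that LXR binds, was found in Abca1 (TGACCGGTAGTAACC on the other strand, first base at -67) and in Srebf1 (TGACCGCCAGTAACC, first base at -182 from one of its starts), against 0.207% of windows. The Idi2 window held none of these motifs. A match is a description of letters, and a window without one says only that these letters are not in it.

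Values below are log2 of the array's background-subtracted signal minus the 75th percentile of that array, so 0 stands at that percentile, and a level of one gene cannot be set against that of another because probes differ in brightness. Differences are log2 changes fitted by limma with their standard errors over all 8 arrays, and a gene is said to have risen or fallen when its p, adjusted by Benjamini-Hochberg over all 15138 genes, was below 0.05. The labels held for the targeted gene: Lsp1 lay between 6.99 and 7.48 on the 4 WT arrays and between 3.48 and 3.69 on the 4 KO arrays. All 14 T cell markers were well above background on every array, with a summed level of 590 to 839 times the 75th percentile. The 8 genes of an activation check summed to 22.5 to 33.2 on medium arrays and to 257 to 422 on stimulated arrays. The 2 KO arrays labelled replicate 2 stood apart from the rest in markers of other cells. The neutrophil list summed to 788 and 448 on the KO medium and KO stimulated arrays of replicate 2, against 192 and 153 on replicate 1 and 144 to 257 on WT arrays, with 15 of 15 markers measured; Mmp8 and Retnlg were not well above background on either stimulated WT array. The erythroid and platelet list reached 160 and 173 on those arrays against 19.9 to 46.1 on the 6 others (12 of 14 markers measured), and the cell cycle list 86.4 and 91.2 against 38.6 to 41.7 (12 of 12 markers measured). The B cell list summed lower in KO than in WT cells, at 45.5 to 48.8 against 57.9 to 68.5 in medium. After stimulation it was 29.2 to 30.1 against 44.3 to 51.7. The natural killer cell list was also lower in KO cells, at 23.4 to 26.5 against 29.3 to 35.6 in medium. After stimulation that list was 38.2 to 39.3 against 41.6 to 47.1. The list of monocytes, macrophages and dendritic cells summed to 22.5 to 42.7 over all arrays, and to 22.7 to 28.9 in WT cells. Each result below that rests on KO cells was also computed without the 2 KO arrays of replicate 2. In RNA from bulk cells, fewer cells of a type and less RNA per cell cannot be told apart.

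On stimulation of WT cells 5 of the 30 genes rose and none fell, while 10.3% of all tested genes changed, 6.42% upwards and 3.84% downwards. All 5 that rose are enzymes of synthesis: Idi2, Idi1, Cyp51, Hsd17b7 and Acat2. The Idi2 probe passed the filter on dim probes through its stimulated arrays alone, so its place in these counts is not independent support; the other 4 were well above background on all 8 arrays. In KO cells 4 of the 30 rose, Idi2, Idi1, Cyp51 and Hsd17b7, and none fell, while 8.13% of all genes changed, 5.85% upwards and 2.27% downwards. The 4 that rose in KO cells all rose in WT cells as well, and 29 of the 30 genes had the same sign in both genotypes. The share of all genes with the same sign in both was not computed. Over the 19 synthesis enzymes the median change was 0.41 in WT and 0.42 in KO cells, against medians of -0.09 and -0.08 over all genes. The medians of the enzymes were the same with Idi2 set against the dimmest detected signal of its medium arrays. The 3 export genes had medians of -0.76 in WT and -0.83 in KO cells, although none of them passed the test.

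**Figure D1:**
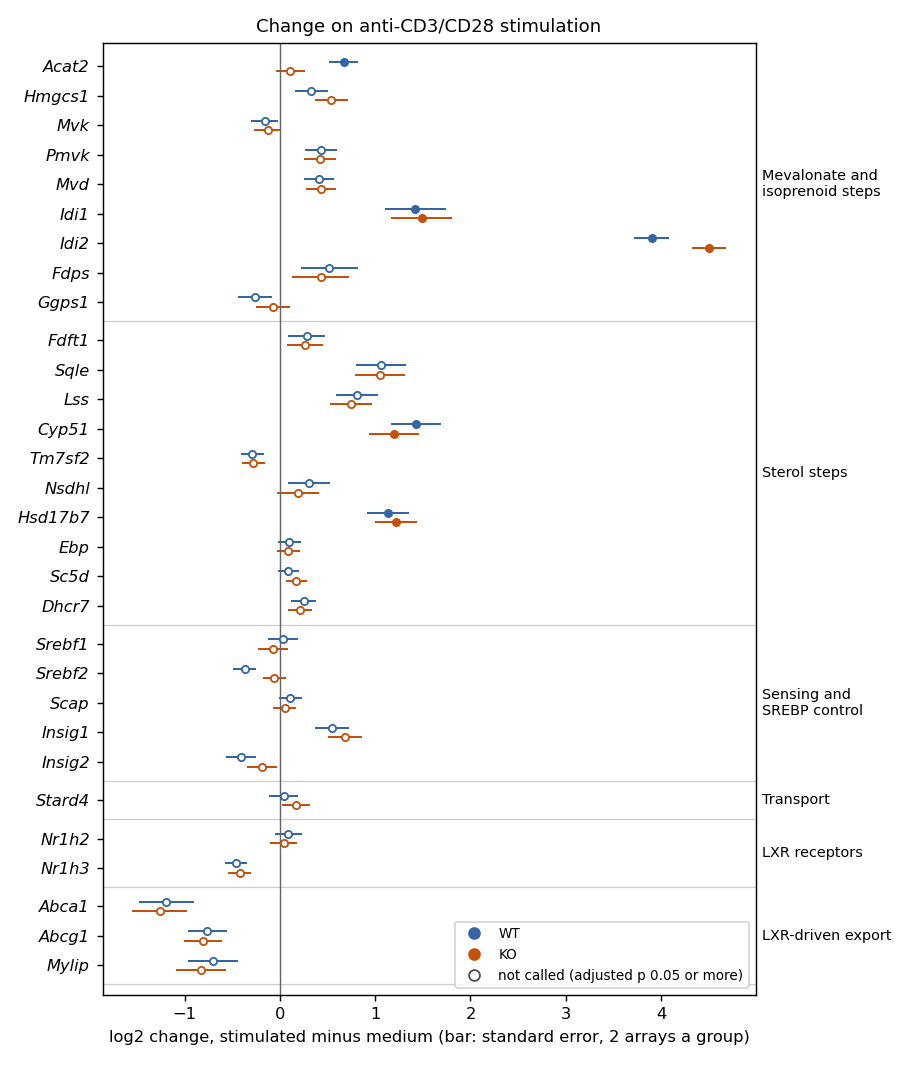
Log2 change on stimulation (horizontal axis, stimulated minus medium; bars are standard errors of the fit, 2 arrays a group) for the 30 genes, grouped by role, in WT (blue) and KO cells (orange); filled points passed the test. Idi2 lies at 3.90 and 4.50 (its medium arrays were all below the background limit). In each genotype 16 of the 19 synthesis enzymes lie above 0, against 6219 of all 15138 genes in WT and 6235 in KO cells. Abca1, Abcg1 and Mylip lie below 0.

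The step that interconverts the isoprenoid building blocks is assigned to a pair of related genes. Idi1 rose, while the call of Idi2 depended on the probe. Idi1 encodes isopentenyl-diphosphate delta-isomerase and Idi2 its close relative; they are neighbours on chromosome 13, with 0 protein-coding genes between them in the RefSeq table. Idi1 stood at 2.32 and 2.14 on the WT medium arrays and at 3.58 and 3.71 on the stimulated ones, and at 1.87 and 2.58 on the KO medium arrays and 3.34 and 4.09 on the stimulated ones. The stimulated arrays lay above the medium arrays in both genotypes, without overlap. Idi1 rose by 1.42 ± 0.32 in WT (2.67-fold, limma, adjusted p = 0.0441) and by 1.49 ± 0.32 in KO cells (2.81-fold, adjusted p = 0.0431).

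Idi2 was not well above background on any medium array, at -6.58 and -6.78 in WT and -7.07 and -6.71 in KO cells. It stood at -2.64 and -2.92 on the stimulated WT arrays and at -2.50 and -2.27 on the stimulated KO arrays, all well above background. The stimulated mean was therefore set against the dimmest signal that counted as well above background on each medium array, or the probe's own where that was higher. This gave 13-fold in WT (limma, adjusted p = 0.000482) and 12.8-fold in KO cells (adjusted p = 0.000428). The dimmest signal was taken over all probes of the array, so these folds are no lower limit for this probe. That probe was the brightest of the gene, and passed the filter, only through the stimulated arrays, so its p is a description and no independent support. The size depended on the probe and on the handling of background. A second Idi2 probe, well above background on all 8 arrays, read -5.43 and -5.87 in WT medium and -5.06 and -4.98 after stimulation, and -5.54 and -5.80 in KO medium and -5.21 and -4.57 after stimulation. Its change was 0.63 ± 0.26 in WT and 0.78 ± 0.26 in KO cells, and with that probe standing for the gene the adjusted p was 0.144 and 0.0975, so the call ended. The last of its 3 probes was well above background on 1 array only and was not tested. With normexp background correction the change of the brightest probe was 1.55 in WT and 1.92 in KO cells, and it was called in both.

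**Figure D2:**
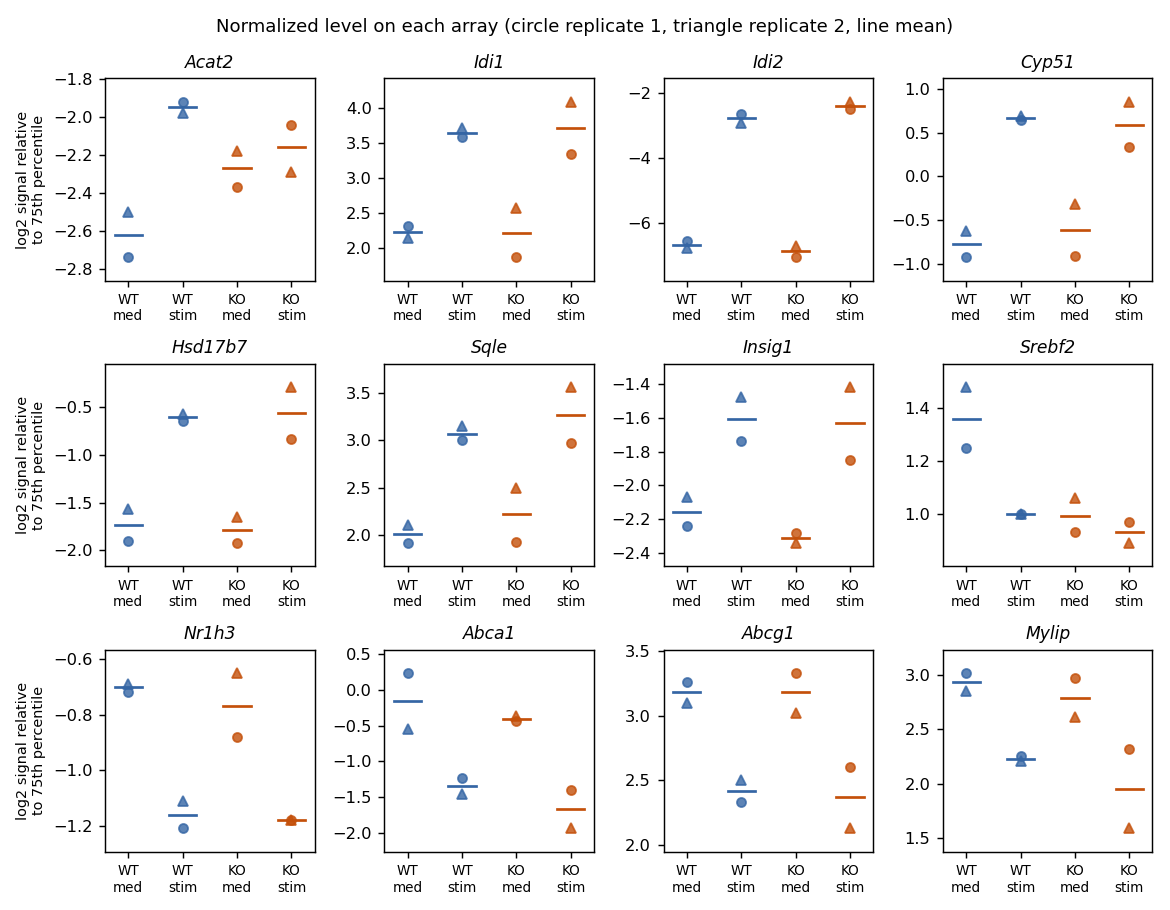
Log2 signal relative to the array's 75th percentile (vertical axis) on each array for the members that passed the test in either genotype, for the 3 export genes and for Sqle, Insig1, Srebf2 and Nr1h3 (WT blue, KO orange); circles are replicate 1, triangles replicate 2 and lines the group means. Each panel has its own scale. The stimulated arrays lie above the medium arrays for Idi2, Idi1, Cyp51 and Hsd17b7 and below them for Abca1, Abcg1 and Mylip in both genotypes.

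The other genes of the mevalonate and isoprenoid steps changed less. Acat2, which encodes the cytosolic thiolase that makes acetoacetyl-CoA, stood at -2.74 and -2.50 on the WT medium arrays and at -1.92 and -1.98 on the stimulated ones. In KO cells it stood at -2.37 and -2.18 in medium and at -2.04 and -2.29 after stimulation, and there the groups overlapped. Acat2 rose by 0.67 ± 0.15 in WT cells (1.59-fold, adjusted p = 0.0442), and its change in KO cells was 0.11 ± 0.15 (adjusted p = 0.687). The difference between those responses was -0.56 ± 0.21 with an unadjusted p of 0.0385 and an adjusted p of 1, so the genotypes were not shown to differ. The remaining mevalonate genes did not pass the test. Hmgcs1, the HMG-CoA synthase, changed by 0.33 ± 0.17 in WT and 0.54 ± 0.17 in KO cells. The kinase gene Pmvk changed by 0.43 and 0.42, the decarboxylase gene Mvd by 0.41 and 0.43, and the farnesyl pyrophosphate synthase gene Fdps by 0.52 and 0.43 in WT and KO cells. Mvk, the mevalonate kinase gene, and Ggps1, which makes the geranylgeranyl pyrophosphate used in protein prenylation, had changes below 0 in both genotypes (-0.16 and -0.13, and -0.26 and -0.07).

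Among the enzymes that turn squalene into cholesterol, only Cyp51 and Hsd17b7 passed the test. Cyp51, the lanosterol 14-alpha-demethylase gene, stood at -0.92 and -0.62 in WT medium and at 0.64 and 0.69 after stimulation, and at -0.91 and -0.31 in KO medium and at 0.33 and 0.85 after stimulation. It rose by 1.43 ± 0.26 in WT (2.70-fold, adjusted p = 0.0272) and by 1.20 ± 0.26 in KO cells (2.30-fold, adjusted p = 0.0464). Hsd17b7 encodes the 3-ketosteroid reductase that works in removal of the methyl groups at carbon 4. Its levels were -1.90 and -1.57 in WT medium and -0.64 and -0.57 after stimulation, and -1.92 and -1.65 in KO medium and -0.83 and -0.29 after stimulation. It rose by 1.13 ± 0.22 in WT (2.19-fold, adjusted p = 0.0310) and by 1.22 ± 0.22 in KO cells (2.34-fold, adjusted p = 0.0259), and a second probe for it read 0.86 and 1.14. For both genes the stimulated arrays lay above the medium arrays in each genotype.

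Other sterol enzymes had intermediate changes that missed the threshold. Sqle, the squalene epoxidase gene and a control point of the pathway, stood at 1.92 and 2.11 in WT medium and 3.0 and 3.15 after stimulation, and at 1.93 and 2.50 in KO medium and 2.97 and 3.56 after stimulation. Its change was 1.06 ± 0.26 in WT (adjusted p = 0.0571) and 1.05 ± 0.26 in KO cells (adjusted p = 0.0680), with no overlap of medium and stimulated arrays. Lss, the lanosterol synthase gene, changed by 0.81 ± 0.22 (adjusted p = 0.0715) and 0.75 ± 0.22 (adjusted p = 0.0981). Fdft1, which encodes the squalene synthase ahead of Sqle, and the late enzymes Nsdhl, Dhcr7, Ebp and Sc5d had changes between 0.09 and 0.31 in both genotypes, and Tm7sf2, which encodes a sterol C14 reductase, changed by -0.29 and -0.28. Of all 19 synthesis enzymes, 13 had both stimulated arrays above both medium arrays in WT cells and 11 in KO cells, with 10 in both, while 27.4% and 22.8% of all genes did.

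The regulators of the pathway did not pass the test in either genotype. Srebf2 encodes SREBP2, the factor most tied to cholesterol genes. It stood at 1.25 and 1.48 in WT medium and at 1.0 on both stimulated arrays, and at 0.93 and 1.06 in KO medium and 0.97 and 0.89 after stimulation. Its change was -0.37 ± 0.12 in WT (adjusted p = 0.114) and -0.06 ± 0.12 in KO cells (adjusted p = 0.798). Srebf1, whose SREBP1 products act more on fatty acid genes, read -2.63 and -2.32 in WT medium and -2.50 and -2.40 after stimulation, with a change of 0.03 ± 0.16. In KO cells Srebf1 read -2.20 and -2.46 in medium and -2.35 and -2.45 after stimulation, with a change of -0.07 ± 0.16. Medium and stimulated arrays overlapped for Srebf1 in both genotypes. Scap, the escort, read 4.65 and 4.69 in WT medium and 4.74 and 4.83 after stimulation, and 4.74 and 4.51 in KO medium and 4.69 and 4.67 after stimulation, with changes of 0.11 ± 0.12 and 0.05 ± 0.12. For Scap and Srebf2 the KO groups overlapped. With a second, dimmer Srebf2 probe they did not, and its change was -0.35 in WT and -0.23 in KO cells.

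The INSIG genes had changes of opposite sign. Insig1, itself a classic SREBP target, stood at -2.24 and -2.07 in WT medium and at -1.74 and -1.48 after stimulation, and at -2.28 and -2.34 in KO medium and at -1.85 and -1.42 after stimulation. Its stimulated arrays lay above its medium arrays in both genotypes, and its change was 0.55 ± 0.18 (adjusted p = 0.109) and 0.68 ± 0.18 (adjusted p = 0.0789). Insig2 stood at 2.06 and 1.77 in WT medium and 1.45 and 1.56 after stimulation, and at 1.74 and 1.53 in KO medium and 1.57 and 1.32 after stimulation. Its groups overlapped in KO cells, and its change was -0.41 ± 0.16 in WT (adjusted p = 0.155) and -0.19 ± 0.16 in KO cells (adjusted p = 0.508). With a second, dimmer Insig2 probe the groups did not overlap in either genotype, and the change was -0.31 in WT and -0.48 in KO cells. Stard4, a soluble carrier that moves sterol between membranes, changed by 0.04 ± 0.15 and 0.17 ± 0.15, while a second, dimmer probe read 0.57 ± 0.23 and 0.51 ± 0.23.

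Export genes driven by LXR lay lower after stimulation on every array, and each missed the threshold. Abca1, which passes cholesterol to lipid-poor apolipoproteins, stood at 0.24 and -0.54 in WT medium and at -1.24 and -1.46 after stimulation, and at -0.44 and -0.37 in KO medium and at -1.40 and -1.94 after stimulation. Its change was -1.19 ± 0.29 in WT (adjusted p = 0.0561) and -1.26 ± 0.29 in KO cells (adjusted p = 0.0559). Abcg1, which loads cholesterol onto high-density lipoprotein, stood at 3.26 and 3.10 in WT medium and 2.33 and 2.50 after stimulation. In KO cells Abcg1 stood at 3.33 and 3.02 in medium and 2.60 and 2.13 after stimulation. The changes of Abcg1 were -0.76 ± 0.20 (adjusted p = 0.0652) and -0.81 ± 0.20 (adjusted p = 0.0651). Mylip stood at 3.02 and 2.85 in WT medium and 2.26 and 2.21 after stimulation, and at 2.97 and 2.61 in KO medium and 2.32 and 1.59 after stimulation. Its change was -0.70 ± 0.26 (adjusted p = 0.136) and -0.83 ± 0.26 (adjusted p = 0.110), and a dimmer second probe read -0.85 and -1.27. In all 3 genes both stimulated arrays lay below both medium arrays in each genotype, as they did for 42.1% of all genes in WT and 28.6% in KO cells.

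The receptors themselves differed in sign. Nr1h3, the LXR-alpha gene, changed by -0.46 ± 0.12 in WT (adjusted p = 0.0664) and -0.42 ± 0.12 in KO cells (adjusted p = 0.0974), with stimulated arrays below medium arrays in both genotypes. Nr1h2, the LXR-beta gene, changed by 0.09 ± 0.14 and 0.04 ± 0.14. Synthesis and export medians were thus on opposite sides of the median over all genes in both genotypes. The export calls depended on the processing: over 19 alternative settings Abca1 was called as lower in 6 for WT and 7 for KO cells, Abcg1 in 6 and 6, and Mylip in 3 and 2. With normexp background correction Abca1 and Abcg1 passed the test in both genotypes.

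The counts of called genes rested on few arrays. The share of all genes called in each refit is not given beside them, so the counts alone show nothing particular to the members. The WT count fell from 5 to 1 without WT medium replicate 1, WT stimulated replicate 1 or WT stimulated replicate 2 and to 2 without WT medium replicate 2. The KO count fell from 4 to 2 without either WT medium array, to 1 without either WT stimulated array, either KO medium array or KO stimulated replicate 2, and rose to 9 without KO stimulated replicate 1. Idi1, Cyp51 and Hsd17b7 were each called in 4 of 8 for WT and 1 of 8 for KO cells, and Acat2 in 2 of 8 for WT. The call of Idi2 in all 8 says little about stability, since its medium arrays are below background in each of them. Without both KO arrays of replicate 2 the KO count was 2 (Idi2, against a medium array below background, and Idi1 at 1.47), the synthesis median 0.33 and the export median -0.73; the WT count was 10, of which 7 were higher and 3 lower.

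Further probes existed for 13 of the 30 genes. The change on stimulation had the same sign in the next brightest probe for 9 of 13 genes in WT and 12 of 13 in KO cells. Besides Idi2 and Stard4, Fdft1 stood out: its second probe, well above background on 3 arrays, read -0.79 in WT and 0.09 in KO cells, against 0.28 and 0.26 for the brighter one. Mvk, Nsdhl and Tm7sf2 also differed in sign in WT cells, with second probes well above background on all 8 arrays. These read 0.12, -0.11 and 0.07 in WT, against -0.16, 0.31 and -0.29 for the brightest probes.

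**Figure D3:**
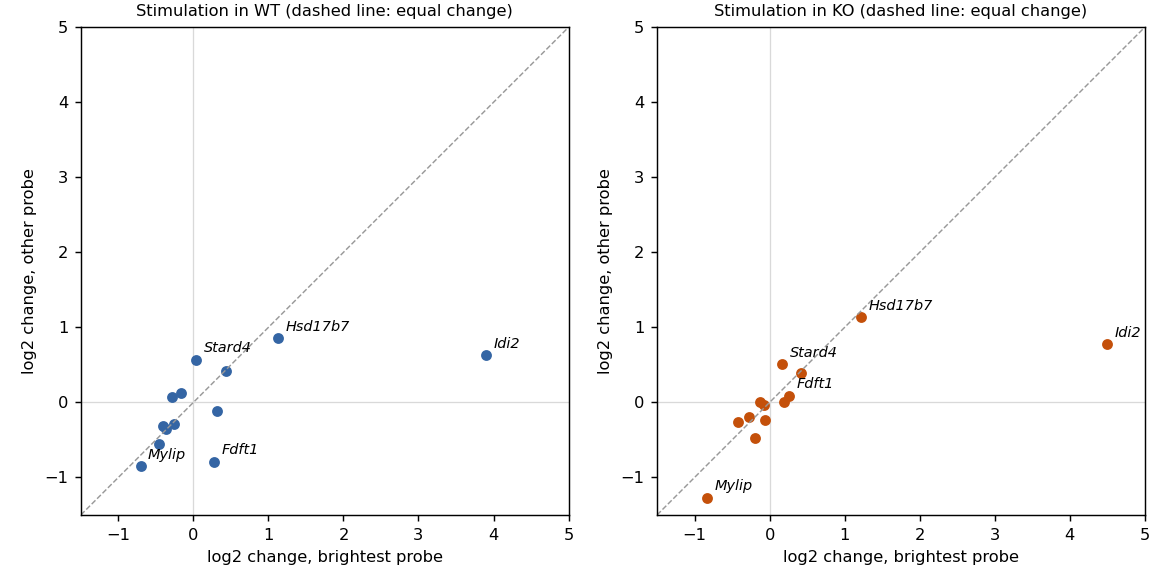
Log2 change on stimulation in the next brightest probe (vertical axis) against the brightest probe (horizontal axis) for the 13 genes with over 1 probe past the filter, in WT (left) and KO cells (right); the line marks equal values. Idi2 lies far to the right of the line, at 3.90 and 4.50 for the brightest probe, whose medium arrays were all below the background limit so that these values are not measured sizes, and 0.63 and 0.78 for the other, well above background on all 8 arrays.

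The 2 arrays of a KO group often differed in the same direction in medium and after stimulation. Of the 19 synthesis enzymes 14 were higher on replicate 2 than on replicate 1 in both KO groups, against 25.9% of all genes. Idi1 was higher by 0.71 in medium and 0.75 after stimulation, Fdps by 0.75 and 0.61, and Sqle by 0.57 and 0.60. For the export genes the difference of replicate 2 from replicate 1 was -0.37 and -0.73 for Mylip and -0.30 and -0.47 for Abcg1, and 0.06 and -0.54 for Abca1. In the same arrays the median difference over the markers was 1.14 and 1.41 for the cell cycle, 4.13 and 3.76 for neutrophils, 2.2 and 2.84 for erythroid cells and platelets, and -0.43 and -0.30 for T cells. The part of these cells in the levels of the pathway genes was not tested. In WT groups, where the neutrophil median differed by -0.59 and -0.45 between replicates, the synthesis median differed by 0.13 and 0.12.

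**Figure D4:**
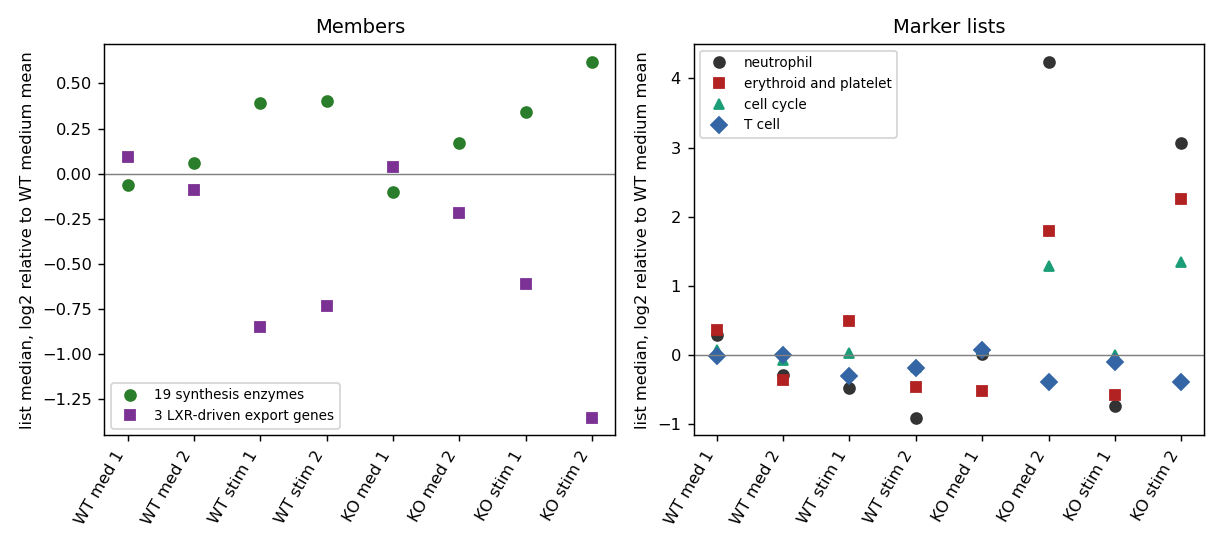
Median log2 level of gene lists on each of the 8 arrays, relative to the mean of the WT medium arrays (vertical axis): synthesis enzymes and export genes on the left, marker lists on the right. The synthesis median lies at 0.34 to 0.62 on stimulated arrays and the export median at -0.61 to -1.35, and the neutrophil median reaches 4.24 and 3.07 on the KO arrays of replicate 2.

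The genotypes were then compared within each condition. The B cell and natural killer cell lists summed lower in KO than in WT cells in each condition. The part of these cells in the differences below was not tested. No member passed the test for KO minus WT in medium or after stimulation, nor for the difference between the responses, where 0.00661%, 0.0198% and 0.00661% of all genes were called by limma. At an unadjusted p below 0.05 there were 2 members in medium, 0 after stimulation and 1 for the difference between responses, against 865, 762 and 459 of all 15138 genes. The 2 in medium were Srebf2, with a difference of -0.37 ± 0.12 (95% interval -0.67 to -0.07, adjusted p = 0.736), and Tm7sf2, with -0.30 ± 0.12 (adjusted p = 0.736). Tm7sf2 differed by -0.29 ± 0.12 after stimulation as well (adjusted p = 0.932). Second, dimmer probes of both genes, well above background on all 8 arrays, did not separate the genotypes in medium. That of Srebf2 read -1.17 and -1.14 in WT medium and -1.19 and -1.09 in KO medium. That of Tm7sf2 read -1.5 and -1.29 in WT medium and -1.29 on both KO medium arrays. In each condition all 30 estimates lay within 0.5 of 0, Idi2 in medium being below background in both genotypes. The 95% intervals reached between 0.27 and 0.78 to either side in medium, with a median of 0.41, so differences of that size are within what these arrays allow. For Abca1, Abcg1 and Mylip the differences after stimulation were -0.32 ± 0.29, -0.05 ± 0.20 and -0.28 ± 0.26, and for Idi1, Cyp51 and Sqle 0.07 ± 0.32, -0.08 ± 0.26 and 0.19 ± 0.26.

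**Figure D5:**
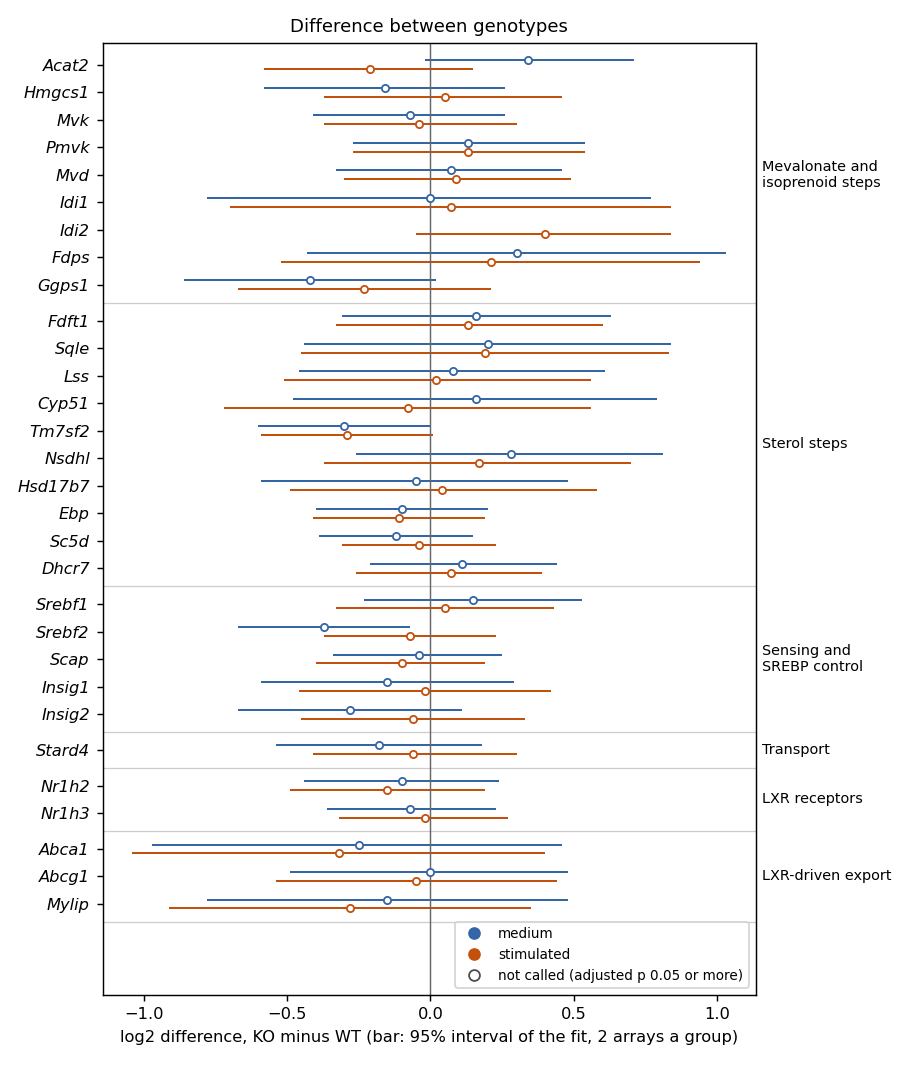
Difference between genotypes, KO minus WT on the log2 scale (horizontal axis; bars are 95% intervals of the fit, 2 arrays a group), in medium (blue) and after stimulation (orange) for the 30 genes. No point passed the test. Idi2 in medium, not well above background on any array, is left out. The interval of Srebf2 in medium is -0.67 to -0.07 for its brightest probe, while its second probe overlapped between the genotypes.

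Lists of related genes were read beside the members. Of 17 tested genes of other cholesterol handling, 1 was called higher and 2 lower in WT, and 1 higher and 1 lower in KO cells, with Cyp27a1 among the lower ones in both. Acat1, the mitochondrial thiolase gene, rose by 0.77 ± 0.10 (adjusted p = 0.0105) and 0.52 ± 0.10 (adjusted p = 0.0321). Cyp27a1, which makes the LXR ligand 27-hydroxycholesterol, had adjusted p of 0.0192 and 0.0151, but it passed the filter only through its medium arrays and was not well above background on any stimulated array. Its levels were -5.92 and -6.02 in WT medium. Against the dimmest detected signal of the stimulated arrays, the medium mean was no higher in WT and 1.15-fold higher in KO cells. That fold is no lower limit for this probe, so a fall is not established in either genotype. Stard5, a sterol-binding protein gene, changed by -0.52 ± 0.10 in WT (adjusted p = 0.0321) and -0.45 ± 0.10 in KO cells (adjusted p = 0.0514).

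Of 14 genes of fatty acid synthesis under SREBP control, 2 rose and 1 fell in WT and 3 rose in KO cells. Fasn, the fatty acid synthase gene, rose by 0.86 ± 0.13 (adjusted p = 0.0169) and 1.12 ± 0.13 (adjusted p = 0.00814), and Acaca, which makes malonyl-CoA, by 0.54 ± 0.12 (adjusted p = 0.0448) and 0.64 ± 0.12 (adjusted p = 0.0316). Acss2, which makes acetyl-CoA from acetate, changed by -0.94 ± 0.21 in WT (adjusted p = 0.0441) and -0.90 ± 0.21 in KO cells (adjusted p = 0.0556). Of 13 genes that use isoprenoids only Pdss1, a subunit of the enzyme that builds the side chain of coenzyme Q, rose, by 1.12 ± 0.24 (adjusted p = 0.0381) and 1.23 ± 0.24 (adjusted p = 0.0323). None of the 10 genes of SREBP processing and sterol-regulated degradation passed the test, with 1 and 2 at an unadjusted p below 0.05 in WT and KO cells, where 4470 and 3844 of all 15138 genes were. Of 7 tested further LXR targets none passed, with 4 and 2 at an unadjusted p below 0.05 (the same totals over all genes apply), and their signs were mixed: Pltp changed by 0.49 and 0.43, Smpdl3a by -0.67 and -0.75 and Arl4c by 0.50 and 0.02. The medians of these lists lay between -0.17 and 0.15.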

How the data were processed

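Cy3-labelled RNA was hybridised to 8 one-colour Agilent arrays on 1 slide, scanned once. Row separates medium from stimulated arrays and column the genotypes, so slide position cannot be told apart from group. Per the file headers, Feature Extraction 10.7.1.1 wrote the deposited intensity values on a linear scale, after background subtraction in the processed signal; the headers name build mm9. The series' value table repeats the median intensity of the scanner (0 values differing), linear and not centred, with column medians of 105 to 117. The share of probes well above background was 69.2% and 68.8% on WT medium arrays and 59.3% and 58.4% on WT stimulated arrays. On KO arrays it was 65.5% and 60.2% in medium and 59.6% and 61% after stimulation. The number of arrays limits the precision.

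Control and outlier spots were left out. Signals were log2-transformed and the array's 75th percentile subtracted. A probe was kept if it was well above background on each array of 1 group or more (37255 of 55681). Names came from RefSeq (GRCm38.p6, used only for names, neighbours and promoter windows). Limma 3.58.1 in R 4.3.3 fitted 4 group means, with 4 residual degrees of freedom and 2.11 added by moderation. An exact permutation test of 2 arrays against 2 reaches p = 0.333 at smallest. The fit was run on simulated arrays with independent noise and changes added to the WT stimulated group. That simulation does not cover the shared deviations of same-numbered KO arrays.

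Members and lists were chosen with earlier results of these data known. Arrays are given in full for members called in either genotype, export genes and the SREBP and INSIG regulators; Sqle was added after its values were seen. Of each related list, at most the 3 genes of lowest adjusted p in WT are named.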

Additional observations from a re-analysis of the deposited data

How the results depend on the processing

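No called member and no list median changed its direction under the alternatives run, and no member was called for any genotype comparison under any of them. The WT count of 5 members called was 8 with normexp on the median signal (added after seeing the data, as gMeanSignal was not used here), 10 with only the WT arrays fitted, and 1 to 7 with 1 array left out. The KO count of 4 was 7 with normexp, 7 with the deposited value table, 2 with no filter on dim probes, 1 with only the KO arrays fitted, and 1 to 9 with 1 array left out. Without both KO arrays of replicate 2 the counts were 10 and 2. With 1 array left out, the synthesis median ranged from 0.36 to 0.51 in WT and from 0.17 to 0.62 in KO cells, and the export median from -0.85 to -0.68 and from -1.20 to -0.58; the lone array of a group is then assumed to vary like the others. The share of all genes called under each of these fits is not given here, so the counts alone show nothing particular to the members. The causes were not tested.

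With the replicate number as a block the counts were 7 in WT and 7 in KO cells, and with a replicate block within genotype 12 and 11, of which 4 and 3 were lower. In that last fit Abca1, Abcg1 and Mylip were called as lower in both genotypes, and Nr1h3 in WT. For both blocked fits, too, the share of all genes called is not given here. The labels do not pair the arrays: deviations of arrays with the same number correlated, over genes, at 0.16 between WT groups, 0.74 between KO groups and -0.06 to -0.24 across genotypes.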
